A study of Homo sapiens with 8 samples.

Results

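The genes described here are 10 standard markers of epithelial and mesenchymal cell identity, namely the simple keratins KRT7, KRT8, KRT18 and KRT19, the epithelial surface genes EPCAM and CDH1, and the mesenchymal genes CDH2, VIM, ZEB1 and FN1. They were chosen by name, with earlier results of these data known, and all 10 were present among the 63568 genes of the count table. The cells were MIAPaCa-2, an established human pancreatic carcinoma line that the labels call an epithelial cell. MeRIP-seq, in which an antibody against N6-methyladenosine (m6A) enriches fragmented RNA and an unenriched portion serves as input, was performed on cells with a control short hairpin RNA (shRNA) and on cells in which an shRNA targeted METTL3 (METTL3-KD), the enzyme that writes most m6A on messenger RNA. From the lane codes in the titles, each condition was read as 1 m6A library and 1 input library, each present as sequencer lanes 1 and 2. The labels name no treatment, time point or clone number for either line. The question was how these identity genes stood in the 2 input libraries and whether m6A peaks lay in them.

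Epithelial cells are held together by E-cadherin, the product of CDH1, and carry an internal scaffold of keratin filaments. Keratins form these filaments only in pairs, with a type II chain such as keratin 7 or 8 joined to a type I chain such as keratin 18 or 19, and these 4 are the keratins usual in ductal pancreas and its carcinomas. During epithelial to mesenchymal transition, transcription factors such as ZEB1 repress CDH1 and other epithelial genes, N-cadherin (CDH2) takes the place of E-cadherin, the filament protein vimentin (VIM) accumulates, and fibronectin (FN1) is laid down in the matrix. Carcinoma lines may hold both programmes at once. In RNA from a whole culture, fewer cells of a type and less RNA per cell cannot be told apart.

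The depth of the libraries limited every comparison. The input lanes held 1609215 and 1628753 reads in control cells and 906240 and 926765 reads in METTL3-KD cells. Those reads fell on 2730 genes in the control and on 10463 genes in METTL3-KD. METTL3 itself had 0 reads in all 4 lanes, so the knockdown could not be checked in these counts. As recorded in the headers of the peak lists, each distinct position of the input reads was read 310 times on average in the control and 25.7 times in METTL3-KD. Reads per gene accordingly clustered at repeated values, with modes at 511 and 1036 reads in the control and at 19.4 and 35.4 reads in METTL3-KD. The lower of these values is used below as a second scale, called the modal unit, beside the reads. It is a working scale and not a count of molecules. A library was taken to detect a gene at more than 3 reads, which corresponds to 0.927 counts per 1000000 reads (CPM) in the control and 1.64 CPM in METTL3-KD. A limit of 3 modal units is far higher, at 473 CPM in the control and 31.7 CPM in METTL3-KD. Lanes of the same library are not biological replicates, so no test between conditions was made. All intervals are 95% intervals that account for the error of counting alone, since these reads carried no molecular identifiers and many may come from the same molecule.

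In both inputs the identity genes fell into a detected set of keratins and vimentin and an undetected set that held E-cadherin, N-cadherin, EPCAM, fibronectin and keratin 7. Of the 10 genes, 3 were detected in the control input (KRT8, KRT18 and VIM) and 5 in the METTL3-KD input (the same 3 with KRT19 and ZEB1). Over all protein-coding genes the detected share was 8.93% in the control and 38.7% in METTL3-KD. KRT7, EPCAM, CDH1, CDH2 and FN1 were undetected in both. Thus the defining epithelial markers were divided, with keratins 8 and 18 among the 100 genes with the most reads of each input and EPCAM and CDH1 without a read.

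**Figure D1:**
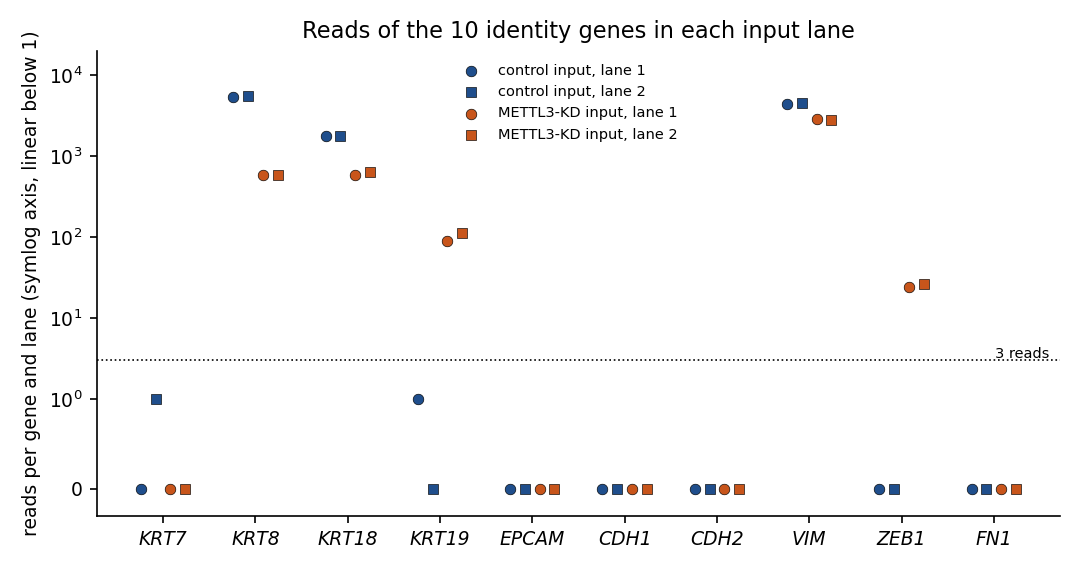
Reads of each of the 10 genes in the 4 input lanes (vertical axis, reads per lane on a symmetric log scale that is linear near 0), with points for control and METTL3-KD lanes. KRT8, KRT18 and VIM carry reads in all 4 lanes, KRT19 and ZEB1 stand clearly above 0 only in the METTL3-KD lanes, and the other 5 genes lie at 0 or 1 read.

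KRT8, the type II keratin of simple epithelia, lies on the minus strand at chr12:53290971-53343738 (hg19). Control lanes held 5398 and 5452 reads of it, METTL3-KD lanes 578 and 589. These sums amounted to 3351 CPM, or 0.335% of all reads (exact binomial interval 0.329 to 0.341%), in the control and to 637 CPM, or 0.0637% (0.0601 to 0.0674%), in METTL3-KD. The lanes of each library lay close together and the 2 libraries did not overlap, with KRT8 in 24th place among all genes in the control and in 100th place in METTL3-KD. On the log2 scale, METTL3-KD over control, the ratio was -1.02 after TMM scaling (a trimmed mean over genes), with an interval of -1.11 to -0.94 on reads and of -1.75 to -0.22 on modal units. Scaled by total reads the same ratio was -2.40. KRT8 was thus lower in METTL3-KD under both scalings, but it was beyond a log2 ratio of -2 only under the latter.

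KRT18, the type I partner of keratin 8, lies directly next to it on the plus strand at chr12:53342655-53346690. Control lanes held 1786 and 1749 KRT18 reads, METTL3-KD lanes 580 and 632, or 1092 and 661 CPM for the libraries. Its log2 ratio was 0.65 after TMM scaling, with an interval of 0.55 to 0.74 on reads and of -0.48 to 2.02 on modal units, and -0.72 by total reads. The direction for KRT18 therefore depended on the scaling, and it stands here as not determined. The annotated bodies of KRT8 and KRT18 overlap by 1084 bp, of which 525 bp are exonic in both. The strand setting of the counting is not stated, and reads from that stretch cannot be assigned with certainty to either gene.

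KRT19, a type I keratin of ductal epithelium, lies on the minus strand at chr17:39679869-39684560. Its reads were 1 and 0 in the lanes of the control against 88 and 113 in those of METTL3-KD, which gave 0.309 and 110 CPM for the libraries. The METTL3-KD reads made up 10.4 modal units (4.80 to 18.4). With TMM scaling the reads differed 919-fold, with a counting interval of 163 to 36486. At the METTL3-KD share of reads, KRT19 would have held only 0.695 modal units in the control, and on modal units the lower bound of the log2 ratio was -1.36. Reads of KRT19 were therefore far more frequent in METTL3-KD, while a difference of that direction was not detectable at the depth in modal units. KRT7, the type II keratin of ductal cells at chr12:52626304-52645970, had 1 read in control lane 2 and 0 in the other lanes, and no fold is given for it.

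The reads of KRT8 and KRT18 were unequal in the control and nearly equal in METTL3-KD. Per kilobase of annotated exon, KRT8 instead stood at 1.37 times KRT18 in the control and at 0.429 times in METTL3-KD. Their ratio of reads, which needs no scaling between libraries, was 3.02 and 3.12 in the control lanes and 0.997 and 0.932 in the METTL3-KD lanes. The ratio of the libraries changed from 3.07 to 0.963, a log2 change of -1.67 with an interval of -3.01 to -0.33 on modal units. Among the reads of the 4 simple keratins, KRT8 took 75.4% and KRT18 24.6% of 14387 reads in the control. In METTL3-KD, KRT8 took 45.2%, KRT18 47.0% and KRT19 7.79% of 2580 reads. The share of KRT8 was thus lower and those of both type I chains higher in METTL3-KD.

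Keratins 8 and 18 have many processed copies in the genome, and the handling of reads that align to several places is not stated. The annotation lists 51 KRT8 pseudogenes, of which 13 had a read, with 1371 reads in the control and 59 in METTL3-KD, or 12.6% and 5.06% of the KRT8 reads. KRT8P3 took 884 and 21 of these reads and KRT8P32 took 463 and 0. KRT8P12 showed the opposite order, with 1 read in the control and 27 in METTL3-KD. The 67 KRT18 pseudogenes together had 10 and 71 reads, of which KRT18P17 had 0 and 70. The 5 KRT19 pseudogenes had none. Of the 75-base stretches in KRT8P3, 13.8% also occurred in KRT8, against 1.44% for KRT8P32 and 0% for KRT8P12, while 1.91% of those in KRT18P17 occurred in KRT18. Adding the reads of the copies moved the change of KRT8 over KRT18 to -1.85, an alternative chosen after seeing the data.

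EPCAM, an adhesion molecule of epithelial membranes (chr2:47572297-47614740), and CDH1 (chr16:68771195-68869440) had 0 reads in each of the 4 lanes. A count of 0 allows up to 3 reads, or 0.0712% of the VIM level per kilobase of exon for EPCAM and 0.0285% for CDH1 in the control, and 0.113% and 0.0452% in METTL3-KD. On modal units the same limits were 36.4% and 14.5% of VIM in the control and 2.19% and 0.877% in METTL3-KD. The limits were thus somewhat lower in the control on reads and far lower in METTL3-KD on modal units, the scale on which a sizeable level could have gone unseen in the control.

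VIM, the type III filament of mesenchymal cells, lies on the plus strand at chr10:17270240-17279592. The control lanes contained 4426 and 4552 VIM reads, and those of METTL3-KD 2890 and 2759. As shares of all reads these were 0.277% (exact binomial interval 0.272 to 0.283%) and 0.308% (0.300 to 0.316%), or 2773 and 3082 CPM. VIM held 30th place among all genes in the control and 27th place in METTL3-KD. Its log2 ratio was 1.52 with TMM scaling (1.48 to 1.57 on reads and 0.80 to 2.26 on modal units) and 0.15 by total reads. The ratio of VIM was thus positive in both scalings, but its size rested on the scaling and by total reads it was close to 0.

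The 2 libraries differed in the balance of vimentin and keratin. KRT8 had 1.21 reads for each VIM read in the control (1.22 in lane 1 and 1.198 in lane 2), and 0.207 in METTL3-KD (0.200 and 0.213). The log2 change of KRT8 over VIM was -2.55 with a counting SE of 0.51 and an interval of -3.54 to -1.55 on modal units. KRT18 over VIM went from 0.404 and 0.384 in the control lanes to 0.201 and 0.229 in the METTL3-KD lanes, a change of -0.88 whose interval of -2.20 to 0.45 included 0. Per kilobase of exon, VIM stood at 0.636 times the summed level of the 4 simple keratins in the control and at 1.68 times that sum in METTL3-KD. With 1 library per condition, a difference between these libraries and a difference between the conditions cannot be told apart.

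**Figure D2:**
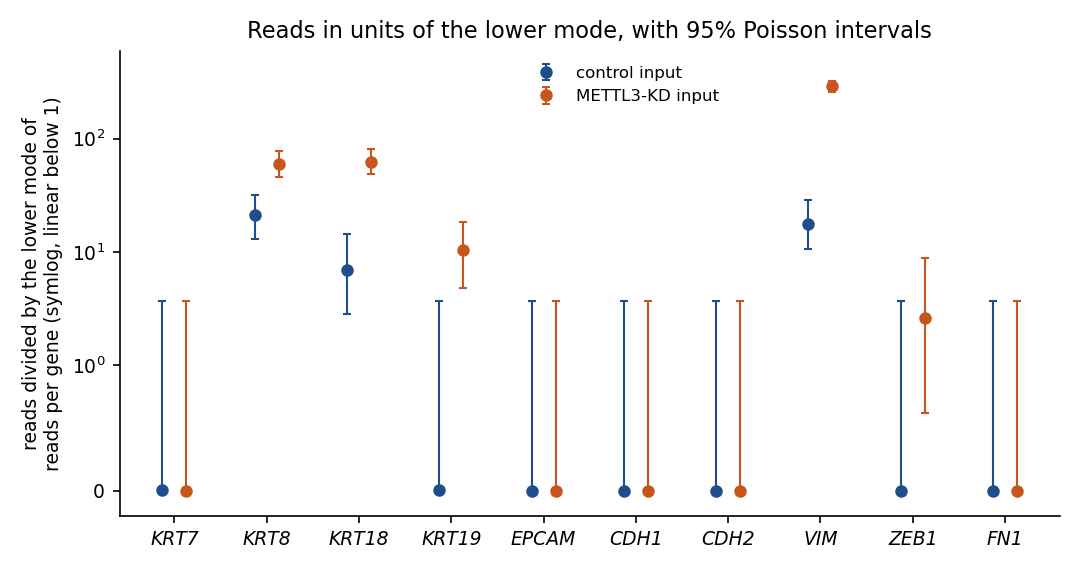
Reads of the 10 genes divided by the lower mode of reads per gene of each input (vertical axis, symmetric log scale that is linear below 1), with 95% Poisson intervals as error bars and 1 library per condition. In METTL3-KD, VIM stands at 291 units and KRT8 and KRT18 near 60, whereas in the control KRT8 at 21.2 and VIM at 17.6 units have intervals that overlap.

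Levels between genes were compared per kilobase of annotated exon. On that scale the order in the control was VIM (536 CPM per kb), KRT8 (487) and KRT18 (356). In METTL3-KD it was VIM (595 CPM per kb), KRT18 (215), KRT8 (92.5), KRT19 (46.9) and ZEB1 (3.15). The neighbours VIM and KRT8 in the control could not be ordered, since with the length of the canonical transcript KRT8 stood at 1878 CPM per kb and VIM at 1287. KRT8 and KRT18 had overlapping intervals of reads in modal units in METTL3-KD, 45.8 to 77.2 and 48.4 to 80.6, and their reads there were nearly equal (1167 and 1212), so that most of their gap per length came with the longer annotated exons of KRT8. VIM was first in METTL3-KD under either length.

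**Figure D3:**
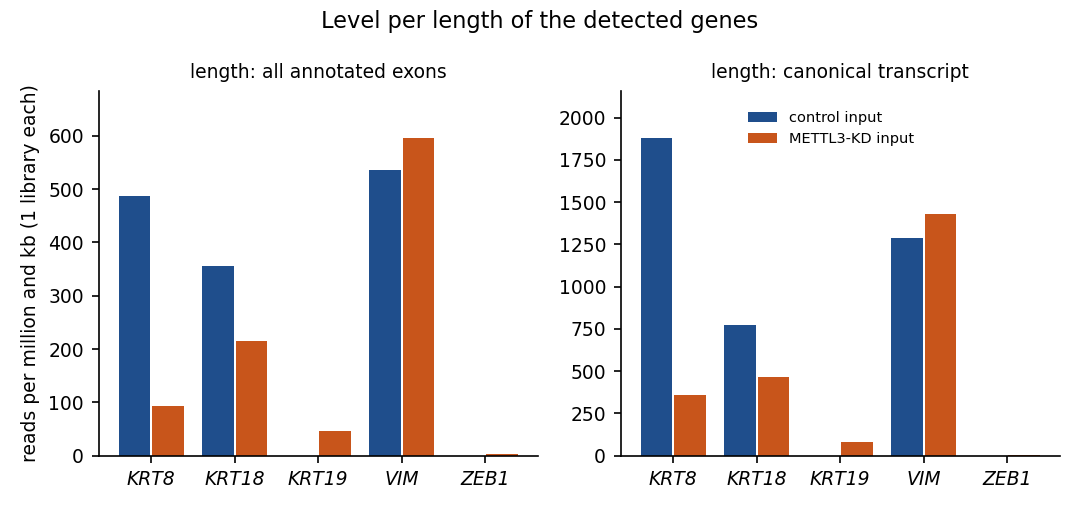
Level of the 5 detected genes in the control and METTL3-KD inputs (vertical axis, CPM per kb, 1 library each), with length taken from all annotated exons on the left and from the canonical transcript on the right. VIM is the highest bar in METTL3-KD in both panels, while in the control VIM leads on the left and KRT8 on the right.

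VIM overlaps an antisense gene, VIM-AS1, on the minus strand at chr10:17256238-17272017. The reads of VIM-AS1 were 1445 and 1526 by lane in the control against 1043 and 1024 in METTL3-KD, or 33.1% and 36.6% of the VIM reads. The bodies overlap by 1778 bp, with 656 bp exonic in both. The library kit marks strand, but because the strand setting of the counting is not stated, reads of VIM and VIM-AS1 cannot be told apart in the overlap.

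ZEB1, the zinc finger repressor of epithelial genes, lies on the plus strand at chr10:31607424-31818742. It had 0 reads in both control lanes and 24 and 26 in the METTL3-KD lanes, or 27.3 CPM. In scaled reads this was at least 76.2-fold higher in METTL3-KD with TMM scaling and at least 29.4-fold higher by total reads, against a floor of 3 reads in the control library. That bound concerns reads and not expression, since the 50 reads were 2.58 modal units (0.619 to 8.77) and the same share of reads would have been 0.173 modal units in the control. ZEB1 in METTL3-KD stood in 4799th place among genes, far below VIM. Its antisense neighbour ZEB1-AS1 had 0 reads in the control and 4 in METTL3-KD.

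CDH2 (chr18:25512843-25757910), the cadherin of neural and mesenchymal cells, and FN1 (chr2:216225163-216300796), a matrix glycoprotein, had 0 reads in all 4 lanes. The 3-read limit set them at up to 0.0202% and 0.010% of the VIM level per length in the control and at up to 0.0320% and 0.0160% in METTL3-KD. On modal units the limits were 10.3% and 5.13% in the control and 0.621% and 0.310% in METTL3-KD. The mesenchymal genes were thus also divided, with VIM among the highest genes of both inputs and CDH2 and FN1 without a read.

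Taking the 10 genes as a set, 5 had at least 10 reads over both inputs and so entered the comparison across all genes. Of these, 2 were beyond a log2 ratio of 2 (KRT19 and ZEB1), and none was below -2 with TMM scaling. Over all 9931 genes tested, 79.1% lay above 2 and 7.37% below -2, so that higher reads in METTL3-KD were the rule in these libraries, and 7383 of the 7859 higher genes had no read in the control. With scaling by total reads, KRT8 joined the genes below -2, giving 2 higher and 1 lower. Among the 1871 genes with at least 10 reads in both inputs the median log2 ratio was -0.61, and against that median KRT8 lay below and KRT18 and VIM lay above.

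**Figure D4:**
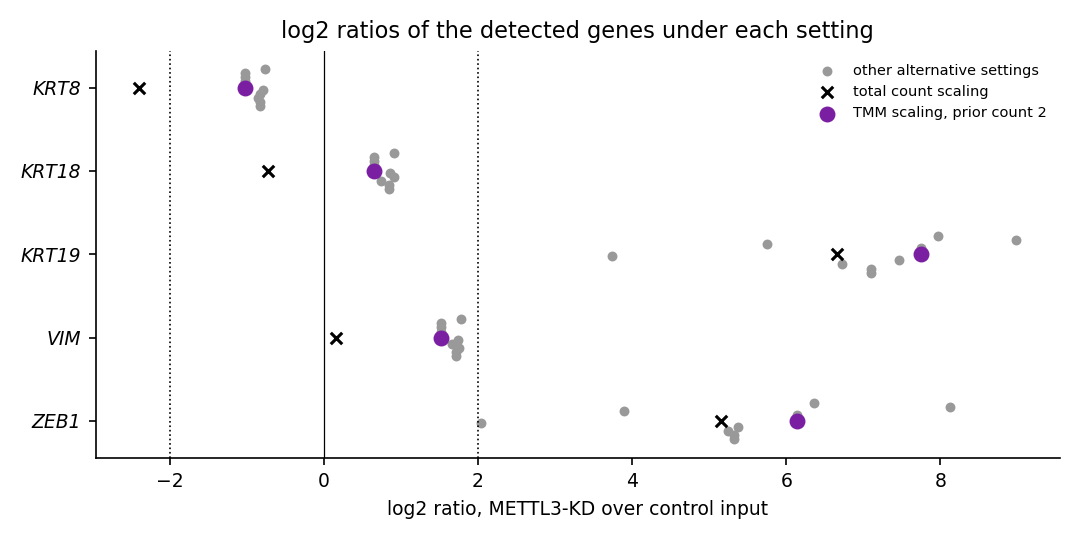
Log2 ratio of the 5 detected genes, METTL3-KD over control input (horizontal axis), with TMM scaling as large points, total count scaling as crosses and the other settings as small grey points. Dotted lines mark ratios of -2 and 2, and KRT18 is the gene whose points lie on both sides of 0.

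The genes whose levels were most like those of the members in both inputs, by distance in log2 CPM over the 2 libraries among the same 1871 genes, were found for the 3 members with at least 10 reads in both. For VIM these were EEF1A1P6, a pseudogene of a translation elongation factor (distance 0.34), the glycolytic gene GAPDH (0.46) and EEF1A1P5 (0.51). For KRT8 they were the ribosomal protein gene RPL3 (0.58), RNU2-2P (0.62) and WDR74 (0.64). For KRT18 they were ENSG00000260501 (0.23), the ribosomal protein gene RPL7A (0.23) and the glycolytic gene ALDOA (0.24). RNU2-2P and WDR74 each had 8229 control reads, and ENSG00000260501 and RPL7A each had 3007. Whether these pairs share reads was not tested. With only 2 libraries this is a likeness of level and not of behaviour.

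The other epithelial genes were mostly without reads in the control. Of 58 such genes, 2 were detected in the control and 14 in METTL3-KD, or 3.45% and 24.1%, beside 8.93% and 38.7% of all protein-coding genes. Of 26 junction genes, 1 was detected in the control and 10 in METTL3-KD. CTNNA1, which couples cadherins to actin, had 935 and 223 reads (log2 ratio 0.12 with TMM scaling, but 289 and 122 CPM by total reads). CTNNB1, its cadherin-bound partner and Wnt effector, had 0 and 318 reads, at least 485-fold more in scaled reads, although the METTL3-KD share would have been only 1.10 modal units in the control. Of 18 regulators and surface genes none was detected in the control and 2 were in METTL3-KD (EHF with 27 and SPINT2 with 127 reads, named after their values were seen). Of 14 other keratins, KRT80 had 872 and 123 reads (log2 ratio -0.63) and KRT15 had 0 and 38. In all, 12 of the 14 tested epithelial genes lay above 2, 11 of them with no control read, and none lay below -2. Over all genes tested 79.1% lay above 2 and 7.37% below -2. The median log2 ratio of the epithelial genes was 5.75, against 5.60 over all genes tested. It followed the prior count, at 7.73 with 0.5 and 3.53 with 10.

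Of the other mesenchymal genes, 8 of 46 (17.4%) were detected in the control and 16 (34.8%) in METTL3-KD, beside 8.93% and 38.7% of all protein-coding genes. CD44, a hyaluronan receptor, was the most abundant, with 6653 and 1543 reads and a log2 ratio of 0.08. Near it in ratio were the collagen crosslinker LOXL2, with 1001 and 225 reads (0.04), and the collagen gene COL1A2, with 1804 and 353 (-0.16). These ratios are with TMM scaling. By total reads all these genes were lower in METTL3-KD, CD44 at 842 against 2055 CPM in the control. LOXL2 stood at 123 against 309 CPM and COL1A2 at 193 against 557. Of 10 transcription factors of the transition, only TCF3 was detected, with 299 and 81 reads. ZEB2, SNAI1, SNAI2, TWIST1, TWIST2 and the other members of that list had 0 reads in both inputs. Of 24 matrix and remodelling genes, 3 were detected in the control and 9 in METTL3-KD, and of 12 surface and contractile genes 4 and 6 were.

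Single mesenchymal genes lay far apart. The integrin subunit ITGB1, a fibronectin receptor chain, had 536 and 1435 reads (log2 ratio 3.61). Its partner ITGA5 had 844 and 1 (interval of the log2 ratio -12.83 to -5.05). The membrane protease MMP14 had 450 and 0 reads, at least 32.8-fold lower in scaled reads. In the control, 536, 844 and 450 reads were 1.05, 1.65 and 0.881 modal units, so that each rested on about the least amount that a detected gene usually held. Of the 18 mesenchymal genes tested, 11 lay above 2, 9 of them with no control read, 2 lay below -2 and 5 lay between, beside 79.1% above 2 and 7.37% below -2 over all genes tested. The median log2 ratio was 4.53, against 5.60 over all genes tested. It likewise followed the prior count, at 6.30 with 0.5 and 2.74 with 10.

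Genes of the TGF-beta pathway, a classical inducer of the transition, were detected in 2 of 10 cases in the control and 5 of 10 in METTL3-KD, beside 8.93% and 38.7% of protein-coding genes. The receptor gene TGFBR1 had 1022 and 0 reads (at least 74.5-fold lower in scaled reads), and the co-receptor TGFBR3 had 505 and 50 (log2 ratio -1.13). By total reads TGFBR3 had 156 and 27.3 CPM, which put its log2 ratio below -2. The signal transducer SMAD3 had 0 and 141 (at least 215-fold higher in scaled reads). At the METTL3-KD share of reads, SMAD3 would have held only 0.488 modal units in the control. Of the 6 tested genes, 4 were above 2, each with no control read, and 1 was below -2 with TMM scaling. Their median was 5.82, a size that rested on the prior count. Over all genes tested it was 5.60, with 79.1% above 2. The control reads of TGFBR1 came to 2.0 modal units.

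Of 10 other intermediate filament genes and linkers, 4 were detected in each input, beside 8.93% of protein-coding genes in the control and 38.7% in METTL3-KD. The B-type lamin gene LMNB2 had 1931 and 621 reads (log2 ratio 0.56), the A-type lamin gene LMNA had 379 and 558 (2.74) and the cytolinker PLEC had 2030 and 420 (-0.08). SYNM, a partner of vimentin and desmin in muscle, had 549 and 1 (interval on reads -12.21 to -4.42). The control reads of SYNM and LMNA came to only 1.07 and 0.742 modal units. Among the 5 tested, with TMM scaling, 2 were above 2 and 1 was below -2, with a median of 0.56, where all genes tested had a median of 5.60 and 79.1% above 2. By total reads LMNA had 117 and 304 CPM, and its log2 ratio was then under 2. LMNB2, at 596 and 339 CPM, and PLEC, at 627 and 229, were then lower in METTL3-KD.

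Markers of other cell types were at 0 except for 1 gene. Of 20 genes for acinar, endocrine, endothelial and leukocyte cells, none was detected in the control and only CD68, a lysosomal protein of macrophages that other cells also contain, was detected in METTL3-KD, with 43 reads or 2.22 modal units. These shares of 0% and 5.0% stand beside 8.93% and 38.7% of all protein-coding genes. With so few genes detected in the control, its zeros say little about these cell types. All 7 acinar, 5 endocrine and 3 endothelial genes were undetected in both inputs.

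**Figure D5:**
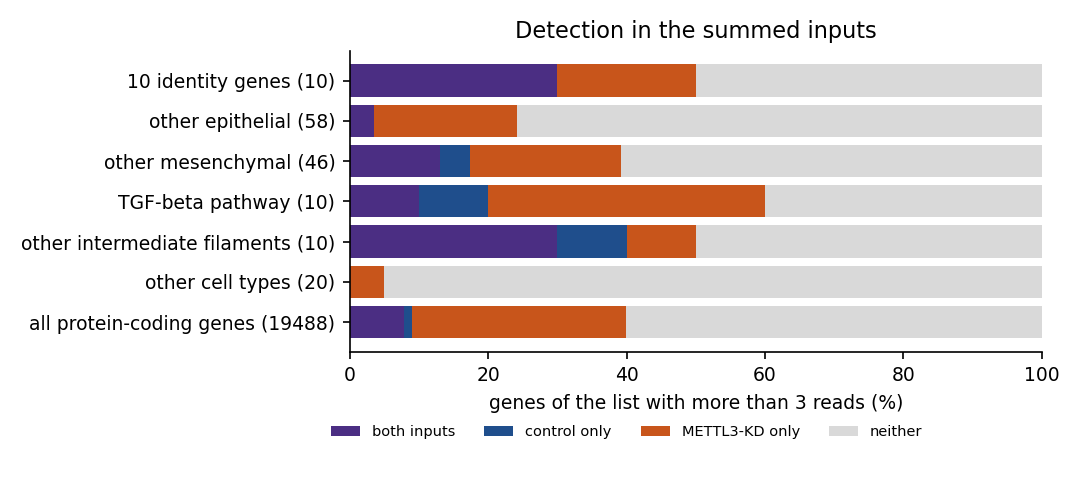
Share of genes with more than 3 reads (percent) in the control and METTL3-KD inputs, for the 10 identity genes, the other lists and all protein-coding genes. Of the 10 identity genes 3 and 5 are detected, while the shares are 3.45% and 24.1% for the other epithelial genes, 17.4% and 34.8% for the other mesenchymal genes, and 8.93% and 38.7% for all protein-coding genes.

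m6A peaks were looked for in the bodies of the 10 genes among the peaks with a q value under 0.01, 2298 in the control and 830 in METTL3-KD. The control list held 1 peak in FN1 and 1 in ZEB1, and the METTL3-KD list held none in any of the 10 genes. Over all protein-coding genes, 9.25% had a peak in the control list and 3.59% in the METTL3-KD list. KRT8, KRT18 and VIM, the abundant members, had no peak in either list. After removal of duplicates the m6A libraries held only 7920 distinct positions in the control and 4508 in METTL3-KD. A missing peak at that depth does not show a lack of m6A. Both genes with a peak had 0 reads in the control input, so that their enrichment was set against a background without reads of the gene.

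The FN1 peak lay at chr2:216238045-216238144 in exon 39 of 46, inside the coding sequence, with its summit at 216238095. It rested on a pileup of 1 fragment after removal of duplicates, with a fold enrichment of 2.0 and a −log10 q of 2.93. The ZEB1 peak lay at chr10:31607547-31607647, with its summit at 31607597, 173 nt from the start of the gene. Here 2 fragments made up the summit, at a 3.0-fold enrichment and a −log10 q of 6.42. The summit was intronic for ZEB1 and inside an exon of ZEB1-AS1 on the minus strand, and the strand of the enriched fragments is not given by the peak list. Both peaks thus rested on very few distinct fragments.

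METTL3 methylates adenosine within the motif called DRACH, read as A, G or T, then A or G, then A, C, and last A, C or T. The match nearest each summit is shown in capitals, on the strand of the named gene and with 12 reference bases on each side, to show where in the peak a target adenosine could lie.
FN1, chr2:216238106-216238134, minus strand: gcctggaaccggGAACCgaatatacaatt
ZEB1, chr10:31607580-31607608, plus strand: cccggggagtccAGACCgcgatccctttc
The central A of the match was 25 nt from the summit in FN1 and 3 nt from it in ZEB1. Within 50 nt of the summit there were 3 matches on the gene strand of FN1 and 4 on that of ZEB1, and 1 more on the other strand in each. A match is common in windows of this size, since 97.0% of 2297 control peaks and 98.3% of 827 METTL3-KD peaks outside the mitochondrial genome held a match on either strand. The match is a description of the sequence and does not mark a methylated site.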

How the data were processed

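MeRIP-seq of MIAPaCa-2 cells was analysed from 8 samples, which the titles place in 4 groups (m6A and input, each for control and METTL3-KD). The titles give 2 lane codes in each group, which were read here as lanes 1 and 2 of 1 library. Before deposit, ribosomal reads had been removed (Bowtie2), the rest aligned to hg19 (HISAT2) and read counts per gene obtained (featureCounts) by the authors, and the deposited count table holds raw read counts per input lane. The annotation release, strand setting and treatment of multiple alignments and duplicates in the counts are not given in the sources used here. The authors called peaks with MACS2 2.1.1 on pooled lanes and kept 1 read per position. The deposited pileup is a signal, the fragments at the summit, and the deposited fold compares it with the background around it. In control peaks of the members and lists, pileups of 1, 2 and 4 went with folds of 2.0, 3.0 and 4.92 to 5.0. The fold there thus mostly followed the number of fragments. The deposited −log10 column used here holds q values. The file headers name a q cut-off of 0.05 and the methods 0.01, and peaks under 0.01 were used.

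Lanes were summed. A chi-square of lane counts, divided by its degrees of freedom, was 2.07 for the control lanes and 1.06 for those of METTL3-KD. Lanes thus differed by more than counting error, mainly in the control, so intervals on reads may be too narrow. Lane deviations correlated at -0.0117 between the conditions over 1871 genes, and the shared lane numbers in the titles are the only source of pairing. Reads were scaled by TMM over the whole table (edgeR 4.0.16 in R 4.3.3, factors 1.61 and 0.621) with 2 as prior count. The 9931 genes with 10 or more reads over both inputs were kept, and genes beyond a log2 ratio of 2 were counted. DESeq2 1.42.0 size factors were an alternative. With 1 library per condition no p-value was computed between conditions. The step was tested on simulated data with few and balanced changes. These libraries are unlike that setting, so the test does not bear on whether the ratios here are sound. Intervals were exact conditional binomial or exact Poisson. The modal unit was the lower mode of a kernel density of log2 reads per gene (SD 0.1), and intervals on modal units treat each unit as 1 count. Positions, exons and lengths came from GENCODE 44 on GRCh37 (hg19), to which 55665 of 63568 genes matched. Reference bases were read from the same genome.

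The members and the gene lists were chosen with earlier results of these data known. The text names all 10 members. From each list (epithelial, mesenchymal, TGF-beta pathway, other intermediate filaments, other cell types) it names the 3 genes with the highest mean CPM per kb and each gene with at least 10 control reads and a log2 ratio beyond 2 in either direction. It also names pseudogenes and antisense genes with at least 10 reads in either input, and the 3 genes nearest in level to each member with at least 10 reads in both. Outside this rule it names KRT15, EHF, SPINT2, TCF3, ZEB2, SNAI1, SNAI2, TWIST1 and TWIST2. The genes named for their peaks in the last section are also outside it. NEFL and PECAM1 had no match by identifier and were left out. m6A reads per gene were not analysed here.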

Additional observations from a re-analysis of the deposited data

How the results depend on the processing

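Over all alternatives the members beyond a log2 ratio of 2 stayed at 2, and those below -2 were 0 except for 1 (KRT8, -2.39) with total counts. No alternative adds depth to the control. On modal units the intervals of the log2 ratio still reached down to -1.36 for KRT19 and -3.80 for ZEB1. Relative to TMM, the median ratio of genes with at least 10 reads in both inputs shifted by 0.26 with DESeq2 size factors, by -1.36 with total counts, by 0.26 with reads divided by the lower mode and by 0.18 to 0.20 with a lane left out. The log2 ratio ranged from -2.39 to -0.77 for KRT8, from -0.72 to 0.91 for KRT18, from 3.73 to 8.98 for KRT19, from 0.15 to 1.78 for VIM and from 2.04 to 8.13 for ZEB1. Genes above 2 fell from 7859 to 3646 with reads divided by the lower mode and to 3600 at a minimum of 50 reads, and genes below -2 rose from 732 to 1260 with total counts. The epithelial list then held 5 genes above 2 in place of 12 under either of the first 2 settings, and 10 with either lane left out. The mesenchymal list held 8 to 11. Its median log2 ratio ranged from 1.45 to 6.30, and that of the epithelial list from 1.75 to 7.73. With the longest transcript as length, VIM over the keratins was -0.70 in the control and 0.90 in METTL3-KD (log2), with the canonical transcript -1.04 and 0.66, and without length correction 1.13 in METTL3-KD. Control peaks in members fell from 2 to 1 at q under 0.001, to 0 at a fold of at least 4 and to 1 with the summit in an exon. Adding reads of pseudogene copies, chosen after seeing the data like the canonical length and the lane checks of the gene pairs, gave -2.65 for KRT8 over VIM and -1.85 for KRT8 over KRT18. With a lane left out these ranged from -2.61 to -2.49 and from -1.74 to -1.60, and KRT18 over VIM from -1.01 to -0.75. With lanes as replicates, the fit with the lane number as a replicate block gave -0.83 for KRT8, 0.84 for KRT18, 7.10 for KRT19, 1.72 for VIM and 5.32 for ZEB1, and the fit without that block gave the same values to 2 decimals. Depth in the control, where 3 modal units are 473 CPM, limits each statement on undetected genes.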

Other observations

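Several genes of the wider epithelial and mesenchymal lists carried control m6A peaks without reads in the control input, and they are named here after their values were seen. A control peak lay in 5 of 58 epithelial and 7 of 46 mesenchymal genes, beside 9.25% of all protein-coding genes. Of the 5 epithelial genes with a control peak, 4 had 0 control input reads, namely the tight junction gene OCLN and the epithelial transcription factor gene OVOL2, which also had 0 reads in METTL3-KD, and the catenin genes CTNNB1 (318 reads in METTL3-KD) and CTNND1 (259). Of the 7 mesenchymal genes with a control peak, 3 had 0 control input reads, namely COL3A1 (0 reads in METTL3-KD), TGFBI (87) and COL6A2 (124). The control peaks of OCLN, CTNNB1, COL3A1 and TGFBI had a pileup of 1 fragment, that of CTNND1 of 3 and those of OVOL2 and COL6A2 of 4. Only 8.93% of all protein-coding genes were detected in the control input. How often control peaks lay in genes without control reads over the whole table was not counted. SMAD2, a mediator of TGF-beta signals, had 0 control reads, 200 reads in METTL3-KD and a control peak of 4 fragments. ITGB1 held 6 control peaks, with pileups of 1 to 4 fragments, and no METTL3-KD peak, while it had 536 control reads and 1435 in METTL3-KD. In the METTL3-KD list, peaks of 1 fragment lay in OVOL2, LOXL2 and COL1A1. OVOL2 and LOXL2 had a peak in both lists, but not at the same place. The OVOL2 summits were at 17954436 in the control and 17970924 in METTL3-KD on chromosome 20.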
